A study of Mus musculus with 10 samples.

Results

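The immediate early transcription factors described here are Jun, Junb, Jund, Fos, Fosb, Fosl2, Egr1, Egr2, Egr3 and Nr4a1. They are 10 of the 19937 genes with a level on the arrays, chosen by name with earlier results of these data known. Each is the sole gene of its probe set in the platform annotation. Each had 1 such probe set, so none had to be preferred over another. Affymetrix whole-transcript arrays measured RNA of J558, a plasma-cell tumour line of the mouse, carrying a retroviral vector with Pax5 G183S (4 arrays), wild-type Pax5 (Pax5 WT, 3 arrays) or no insert (empty vector, 3 arrays). Pax5 is the transcription factor that sets B-cell identity and is silenced when B cells become plasma cells; in G183S the octapeptide motif carries serine in place of glycine. All groups carried the MSCV-Puro-IRES-GFP backbone, which adds puromycin resistance and green fluorescent protein; all were held in puromycin for 5 to 7 days and sorted for GFP and IgM. The comparisons ask what each construct changed in these factors and whether mutant and wild type differed. It is a model in 1 cell line, with Pax5 supplied from a retroviral promoter. Time from sorting to lysis is not given in the sources used here.

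Immediate early genes are switched on within minutes of a signal and need no new protein synthesis. Extracellular signals, in B cells among others those of the B-cell receptor, run through Ras and the MAP kinases to serum response factor with its Elk partners and to CREB, which sit on the promoters of these genes before the signal arrives. Jun proteins pair with each other or with Fos proteins to form AP-1, which binds TGANTCA. Egr proteins bind GC-rich sites through zinc fingers and are held in check by the Nab co-repressors, and Nr4a1 (Nur77) is an orphan nuclear receptor induced by antigen-receptor signals.

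Promoter windows, from 250 bases before to 50 bases after a RefSeq start on GRCm38.p6, were found for 8 of the 10 genes, which left Egr1 and Egr3 as names only. Windows of Jun, Jund and Fos are shown because these were the genes whose G183S arrays all lay below the empty-vector arrays, and that of Egr2 because its estimates had the opposite sign to those of Egr1. The windows read 5′ to 3′ along the gene, in lower case, with matches to any searched motif in capitals.
Jun, chr4:95052173-95052472, minus strand: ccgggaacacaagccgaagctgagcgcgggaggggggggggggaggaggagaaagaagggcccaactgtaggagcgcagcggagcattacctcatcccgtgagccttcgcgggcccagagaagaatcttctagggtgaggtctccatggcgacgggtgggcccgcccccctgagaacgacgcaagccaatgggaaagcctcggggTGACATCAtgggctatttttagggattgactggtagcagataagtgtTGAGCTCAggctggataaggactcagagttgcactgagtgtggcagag
Jund, chr8:70697489-70697788, plus strand: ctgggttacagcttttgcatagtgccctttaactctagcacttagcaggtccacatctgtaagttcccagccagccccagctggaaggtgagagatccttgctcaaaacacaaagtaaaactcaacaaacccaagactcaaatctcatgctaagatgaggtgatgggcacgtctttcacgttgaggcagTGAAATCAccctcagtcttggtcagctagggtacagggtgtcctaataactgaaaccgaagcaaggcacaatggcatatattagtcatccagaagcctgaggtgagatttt
Fos, chr12:85473640-85473939, plus strand: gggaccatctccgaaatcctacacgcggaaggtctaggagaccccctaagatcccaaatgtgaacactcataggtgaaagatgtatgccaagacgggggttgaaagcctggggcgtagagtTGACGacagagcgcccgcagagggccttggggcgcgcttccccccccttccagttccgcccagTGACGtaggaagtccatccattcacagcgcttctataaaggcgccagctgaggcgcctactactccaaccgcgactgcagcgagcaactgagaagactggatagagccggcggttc
Egr2, chr10:67537619-67537918, plus strand: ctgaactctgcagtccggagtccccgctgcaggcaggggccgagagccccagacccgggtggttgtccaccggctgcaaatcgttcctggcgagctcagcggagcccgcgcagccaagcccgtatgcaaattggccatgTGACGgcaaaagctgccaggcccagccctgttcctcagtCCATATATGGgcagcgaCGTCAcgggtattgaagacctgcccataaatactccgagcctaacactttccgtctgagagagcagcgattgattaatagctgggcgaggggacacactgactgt

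Motifs were searched on both strands: the CArG box bound by serum response factor, TGANTCA of AP-1, its longer form TGANNTCA, the cAMP response element TGACGTCA and its core TGACG, and the Egr site GCGNGGGCG. TGACGTCA holds TGACG and is also a case of TGANNTCA. Among the 8 genes only Egr2 held a CArG box, in 4 of its 5 windows. Those starting at 67537619, 67537620 and 67537680 overlap and hold the same box, so the 4 are not separate sites. Egr2 also had more windows than any other of these genes. Of all 32851 windows of 300 bases, 1.63% hold a CArG box. In the window shown it began 72 bases before the start, between matches to TGACG that began 111 and 55 bases before it. Fos had TGACG at 129 and 66 bases before the start. Jun held TGANNTCA at 45 bases before the start and again just past it, Jund at 61 bases before it, and Egr2 in another of its windows; 14.1% of all windows hold that motif. TGACG was in windows of 5 of the 8 genes (Junb, Fos, Fosb, Egr2 and Nr4a1) and GCGNGGGCG in 3 (Fosb, Fosl2 and Nr4a1). By window these were 7 and 3 of the 12 windows of these genes, against 20.8% and 5.55% of all windows. The 7 include the overlapping Egr2 windows, which hold the same TGACG sites. Neither TGANTCA (7.81% of all windows) nor TGACGTCA (1.79%) was found in any of them. A match describes letters in this window and is not a measured binding site.

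Array medians lay between 6.81 and 6.94 log2 units, and Pearson correlations across genes between arrays of 1 group were 0.985 to 0.998. Pax5 read 9.38 to 10.36 log2 units in the G183S arrays, 10.05 to 10.67 in the Pax5 WT arrays and 6.84 to 7.10 in the empty-vector arrays. All 6 plasma-cell markers examined lay above the median of all probe sets, while 1 of 6 T-cell, 1 of 6 myeloid, 0 of 4 erythroid and 3 of 6 stromal markers did. Over genes, deviations from the group mean were correlated between equally numbered G183S and Pax5 WT arrays. The correlation was 0.507 for number 1, -0.162 for number 2 and 0.455 for number 3, so some arrays of different groups stood apart together. For several genes the value without the 2 Pax5 arrays numbered 1 is given. No fit left out the G183S and Pax5 WT arrays numbered 3 together, so what those share was not tested. Fewer cells expressing a gene and less RNA per cell cannot be told apart in these bulk samples. Levels are log2 units of 1 probe set and are not set against those of another gene.

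**Figure D1:**
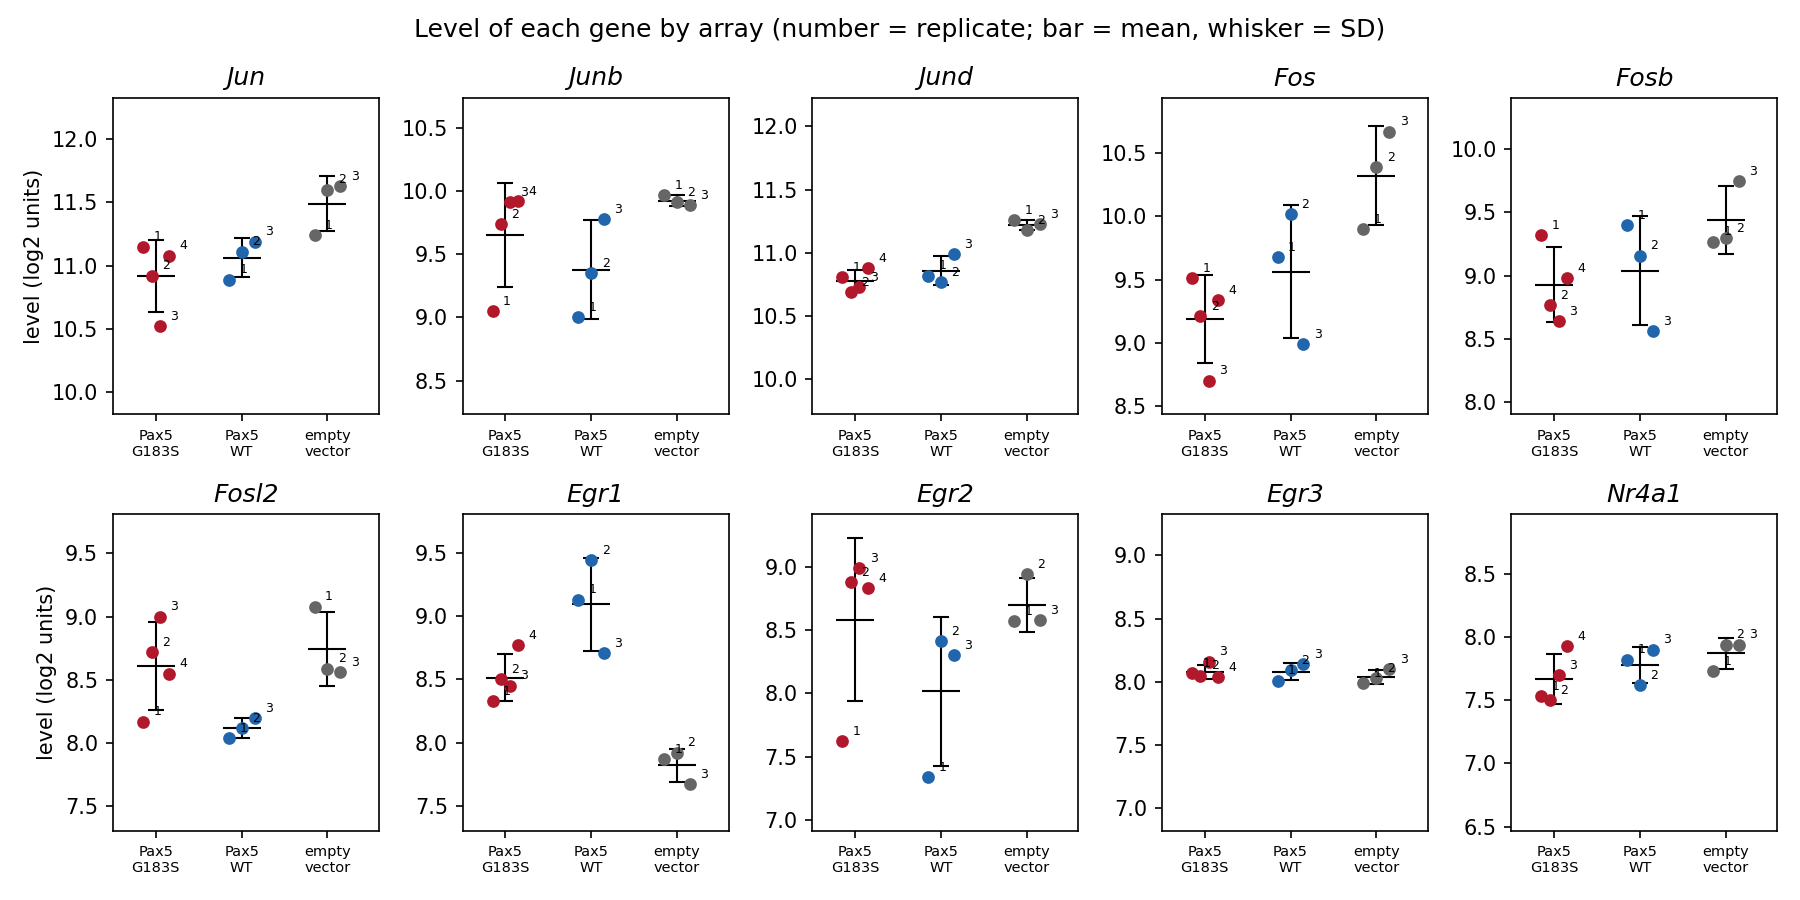
Level of each factor in log2 units (vertical axes, all spanning the same width) in the Pax5 G183S, Pax5 WT and empty-vector arrays; points are arrays with their replicate number, bars are means and whiskers SDs. Egr1 is above the empty-vector arrays in all 7 Pax5 arrays, Jund and Jun are below them in all 7, and Egr3 stays between 7.99 and 8.16.

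With wild-type Pax5, Egr1 rose to 2.42 times its empty-vector level and Jund fell to 0.776 times, and these were the members past the threshold (limma adjusted p under 0.05). Calls made up 1.88% of all genes in this comparison, 0.883% higher and 0.993% lower. With G183S, Jund alone passed, at 0.734 times its empty-vector level, where calls made up 0.311% of all genes, 0.100% higher and 0.211% lower. Between G183S and Pax5 WT no member passed, nor did any other gene (0%), although 9.48% of all genes had an unadjusted p under 0.05. All 6 Jun and Fos members had negative estimates in both comparisons with empty vector. Averaged over its 3 genes and set against the empty-vector mean, the Jun family ranged between -0.54 and -0.26 log2 units with G183S, -0.65 and -0.23 with Pax5 WT, and -0.05 and 0.03 with empty vector. The mean of the 3 Fos members ranged between -0.72 and -0.50, -0.92 and -0.40, and -0.08 and 0.16 in those groups. Fosl1, a Fos gene that is not a member, differed by 0.24 with G183S and -0.07 with Pax5 WT (limma adjusted p = 0.71 and 0.89). The Egr members had no common direction. Egr1 had positive estimates with both constructs and passed with Pax5 WT. Egr2 had negative ones, of which that with G183S turned to 0.20 without the 2 Pax5 arrays numbered 1. Egr3 lay within 0.04 log2 units of its empty-vector mean. Egr4, a relative that is not a member, differed by -0.37 with each construct and did not pass (limma adjusted p = 0.261 with G183S and 0.204 with Pax5 WT). Its Pax5 arrays all lay below the empty-vector arrays.

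Of the 10 factors, 8 had a negative estimate with Pax5 WT and 8 with G183S, against empty vector. The median log2 difference was -0.42 over the members and 0.01 over all genes with Pax5 WT, and -0.24 over the members and 0.00 over all genes with G183S. With Pax5 WT the arrays of 1 group lay wholly beyond those of the other for 6 members, 1 above and 5 below, while 24.0% of all genes were so separated, 11.5% above and 12.5% below. With G183S this held for 4 members, 1 above and 3 below, against 11.6% of all genes, 5.02% above and 6.56% below. At an unadjusted p under 0.05 limma counted 5 members with G183S, 1 higher and 4 lower, against 11.3% of all genes (5.12% higher, 6.18% lower). With Pax5 WT it counted 6, 1 higher and 5 lower, against 15.9% of all genes (7.38% higher, 8.55% lower). Both comparisons use the same 3 empty-vector arrays. The members were chosen with earlier results of these data known, so these counts and medians describe the set and are not a test of it.

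**Figure D2:**
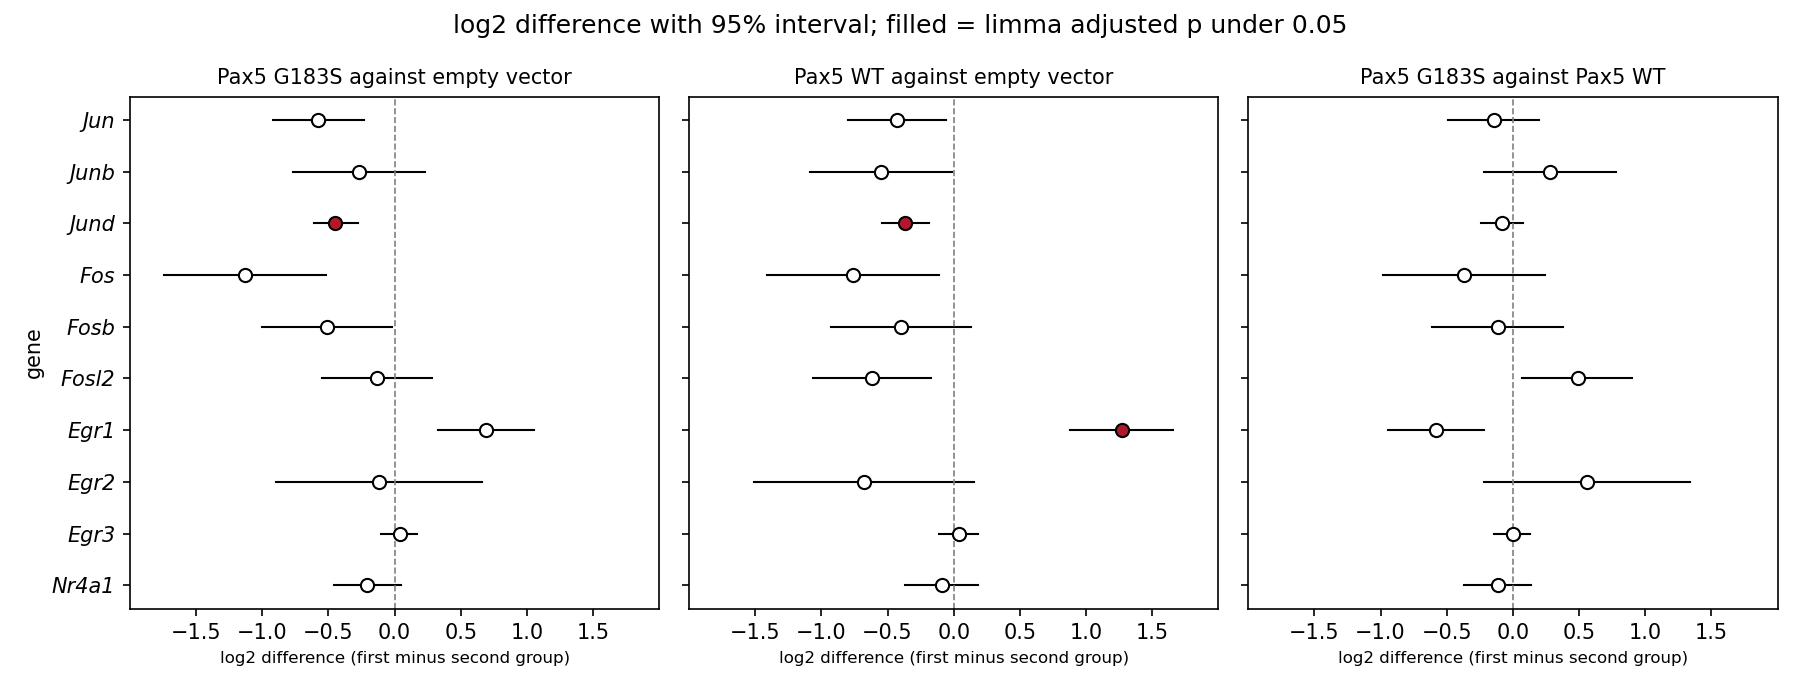
log2 difference (horizontal axes) of each factor in the 3 comparisons, with limma's 95% interval; filled points have an adjusted p under 0.05. Filled points are Jund (-0.45) with G183S, and Egr1 (1.27) and Jund (-0.37) with Pax5 WT.

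Jund (probe set 10572456, chromosome 8), the Jun protein often present in resting cells, had the tightest values of the Jun family. It read 10.81, 10.69, 10.73 and 10.88 log2 units in the G183S arrays, 10.82, 10.77 and 10.99 in the Pax5 WT arrays, and 11.26, 11.18 and 11.23 in the empty-vector arrays. Every Pax5 array was below every empty-vector array, and the G183S and Pax5 WT values overlapped. The log2 difference was -0.45 ± 0.07 SE with G183S (limma adjusted p = 0.0421) and -0.37 ± 0.08 with Pax5 WT (limma adjusted p = 0.0478). Both calls lay close to the threshold: the G183S call was lost without any 1 of empty-vector replicates 1 to 3, Pax5 WT replicate 2 or G183S replicates 2 to 4 (adjusted p 0.0552 to 0.248), and the Pax5 WT call without empty-vector replicates 1 to 3, Pax5 WT replicates 1 or 2, or G183S replicates 2 to 4 (adjusted p 0.0567 to 0.160), and without the 2 Pax5 arrays numbered 1 (adjusted p = 0.0788).

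Jun (probe set 10514466, chromosome 4), the AP-1 member that drives its own promoter, had the same order. Its levels were 11.15, 10.92, 10.52 and 11.08 log2 units with G183S, 10.89, 11.11 and 11.19 with Pax5 WT, and 11.24, 11.60 and 11.63 with empty vector. All 7 Pax5 arrays lay below the empty-vector arrays, the nearest pair being Pax5 WT replicate 3 and empty-vector replicate 1. The log2 difference was -0.58 with G183S (95% interval -0.92 to -0.23) and -0.43 with Pax5 WT (-0.80 to -0.06), and neither passed (limma adjusted p = 0.151 and 0.241). Without the 2 Pax5 arrays numbered 1, the G183S difference was -0.65 and passed (adjusted p = 0.0447). Calls over all genes rose from 62 to 890 in that fit.

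Junb (probe set 10580282, chromosome 8), a weaker activator that can restrain Jun, was more spread among the Pax5 arrays than among the empty-vector arrays. Its levels were 9.05, 9.74, 9.91 and 9.92 log2 units with G183S, 9.00, 9.35 and 9.78 with Pax5 WT, and 9.97, 9.91 and 9.89 with empty vector. Pax5 WT arrays lay below the empty-vector arrays with no overlap, whereas G183S replicates 3 and 4 reached the empty-vector range. Neither difference passed (G183S -0.27, Pax5 WT -0.55; limma adjusted p = 0.770 and 0.301), and without the 2 Pax5 arrays numbered 1 they were -0.07 and -0.36.

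Fos (probe set 10397346, chromosome 12), the labile partner of Jun proteins, had the lowest estimate of the 10 in both comparisons with all arrays in. It read 9.51, 9.21, 8.70 and 9.34 log2 units in the G183S arrays, 9.68, 10.02 and 8.99 in the Pax5 WT arrays, and 9.90, 10.39 and 10.67 in the empty-vector arrays. G183S arrays lay wholly below the empty-vector arrays, and Pax5 WT replicate 2 reached above empty-vector replicate 1. With G183S the level was 0.458 times that of empty vector (log2 difference -1.13 ± 0.27 SE, 95% interval -1.74 to -0.52, limma adjusted p = 0.116). Only 42 of the 19937 genes had a lower log2 difference in that comparison. The difference passed without the 2 Pax5 arrays numbered 1 (-1.23, adjusted p = 0.0458) and with array weights (adjusted p = 0.0130). In those settings calls over all genes rose from 62 to 890 and 1449. The Fos difference lay between -1.34 and -0.95 when 1 array was left out, and passed in 0 of those 10 fits. In each Pax5 group the lowest Fos level was that of replicate 3, and these 2 arrays were not left out together. With Pax5 WT the log2 difference was -0.76 (-1.41 to -0.11; limma adjusted p = 0.237). Without Pax5 WT replicate 3 it was -0.47, and Egr2, Junb, Fosl2 and Jun then had lower estimates.

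Fosb (probe set 10560481, chromosome 7), a Fos relative of similar induction, overlapped between groups. Levels were 9.32, 8.77, 8.64 and 8.98 log2 units with G183S, 9.40, 9.16 and 8.56 with Pax5 WT, and 9.27, 9.30 and 9.75 with empty vector. In both Pax5 groups replicate 3 was the lowest for Fosb and also for Fos. Its log2 differences of -0.51 with G183S and -0.40 with Pax5 WT did not pass (limma adjusted p = 0.421 and 0.459). The Pax5 WT difference was -0.16 without Pax5 WT replicate 3 and -0.24 without empty-vector replicate 3. Without the 2 Pax5 arrays numbered 1 the differences were -0.64 with G183S and -0.58 with Pax5 WT.

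Fosl2 (Fra-2, probe set 10520862, chromosome 5) is a Fos protein without the strong activation domain of Fos. Its levels overlapped between the Pax5 constructs, through G183S replicate 1. Fosl2 read 8.17, 8.72, 9.00 and 8.55 log2 units with G183S, 8.04, 8.12 and 8.20 with Pax5 WT, and 9.08, 8.59 and 8.56 with empty vector. The Pax5 WT arrays lay below every empty-vector array and below G183S replicates 2 to 4, while G183S replicate 1 fell among them. Against empty vector the log2 difference was -0.13 with G183S and -0.62 with Pax5 WT (limma adjusted p = 0.892 and 0.156). G183S minus Pax5 WT was 0.49 (95% interval 0.07 to 0.90), which did not pass (limma adjusted p = 0.508). It was 0.63 and passed without G183S replicate 1 (adjusted p = 0.0454), and was 0.59 and did not pass without both Pax5 arrays numbered 1 (adjusted p = 0.112). Calls over all genes in this comparison, 0 with every array in, ranged between 0 and 1113 over the fits that left out 1 array.

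Egr1 (probe set 10454782), the zinc-finger factor induced through serum response factor and Elk, was the only member called higher. It read 8.33, 8.50, 8.45 and 8.77 log2 units in the G183S arrays, 9.13, 9.44 and 8.71 in the Pax5 WT arrays, and 7.87, 7.92 and 7.67 in the empty-vector arrays. All 7 Pax5 arrays exceeded the empty-vector arrays. G183S replicate 4 exceeded Pax5 WT replicate 3, so the Pax5 groups overlapped. With Pax5 WT the log2 difference was 1.27 ± 0.17 SE (fold 2.42, 95% interval 1.85 to 3.16, limma adjusted p = 0.0131). Leaving out empty-vector replicate 2 or 3 gave 1.32 and 1.20, which did not pass (adjusted p = 0.0639 and 0.0782). With G183S it was 0.69 ± 0.16 SE (fold 1.61, 95% interval 1.26 to 2.08) and did not pass (limma adjusted p = 0.106). It was 0.75 without the 2 Pax5 arrays numbered 1, where it passed (adjusted p = 0.0451) and calls over all genes rose from 62 to 890. The direct difference, G183S minus Pax5 WT, was -0.58 (95% interval -0.94 to -0.22, limma adjusted p = 0.484).

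Egr2 (probe set 10363735, chromosome 10), a relative of Egr1 needed for myelination and active in lymphocytes, had estimates of the opposite sign. Its levels were 7.62, 8.88, 8.99 and 8.83 log2 units with G183S, 7.34, 8.41 and 8.30 with Pax5 WT, and 8.57, 8.94 and 8.58 with empty vector. Pax5 WT arrays were below all empty-vector arrays, but G183S replicates 2, 3 and 4 lay among or above them and replicate 1 far below. The log2 differences of -0.12 with G183S and -0.68 with Pax5 WT did not pass (limma adjusted p = 0.965 and 0.418). Without the 2 Pax5 arrays numbered 1 they were 0.20 and -0.34, so the sign with G183S turned. Its window shown above holds a CArG box, which the windows of the other 7 genes lack. Sites farther than 250 bases before a start were not searched, and Egr1 and Egr3 had no window.

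Egr3 (probe set 10416251, chromosome 14), which acts after NFAT in lymphocytes, kept one level. It read 8.07, 8.05, 8.16 and 8.04 log2 units with G183S, 8.01, 8.09 and 8.14 with Pax5 WT, and 7.99, 8.03 and 8.10 with empty vector. Its log2 difference was 0.04 with either construct, with 95% intervals of -0.10 to 0.17 (G183S) and -0.11 to 0.18 (Pax5 WT). Its range over the 10 arrays was at the 2.4 percentile of all genes, while those of Fos, Egr1 and Egr2 were at the 98.6, 97.9 and 97.5 percentiles.

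Nr4a1 (probe set 10427035, chromosome 15) overlapped between all groups. Its levels were 7.53, 7.50, 7.70 and 7.93 log2 units with G183S, 7.82, 7.62 and 7.90 with Pax5 WT, and 7.73, 7.94 and 7.94 with empty vector. G183S replicate 4 matched the upper empty-vector arrays, and the other G183S arrays lay below all of them. The log2 differences were -0.21 with G183S (95% interval -0.46 to 0.05) and -0.09 with Pax5 WT (-0.37 to 0.18), neither of which passed (limma adjusted p = 0.583 and 0.778).

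**Figure D3:**
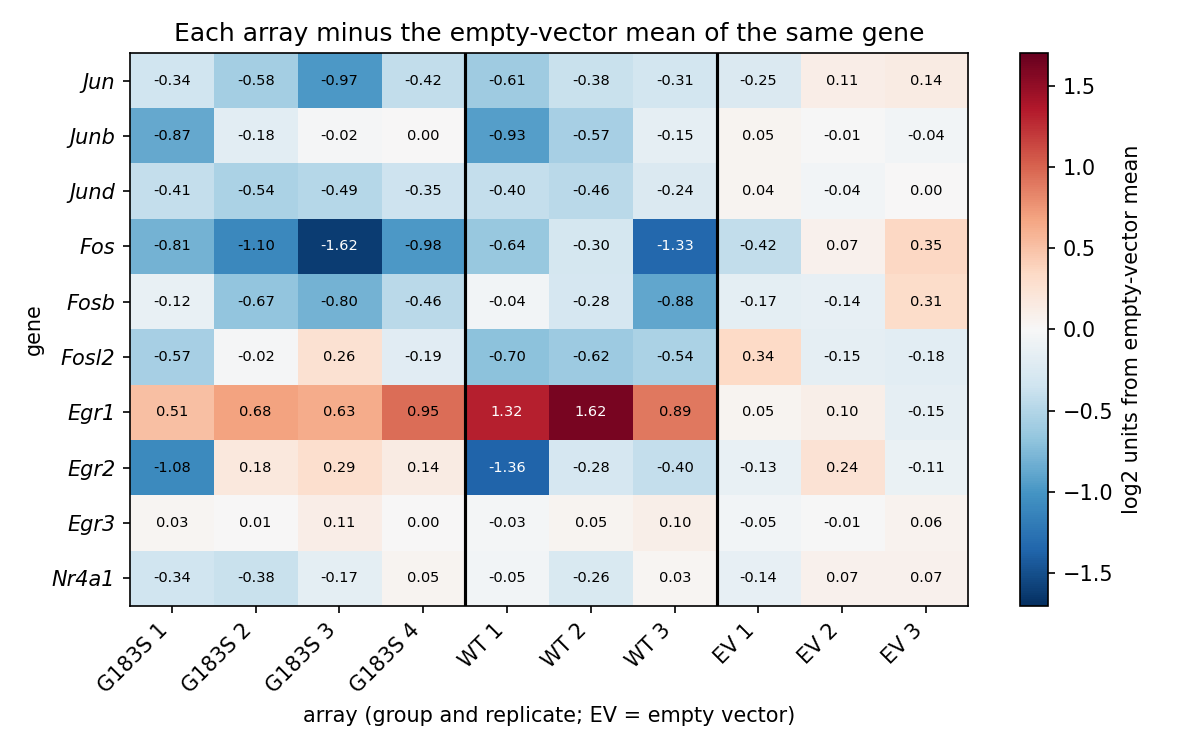
Level of each factor (rows) in each array (columns) minus the mean of the 3 empty-vector arrays for that factor, in log2 units, red above and blue below. Egr1 is 0.51 to 1.62 above in the Pax5 arrays, and the deepest blue of Junb and Egr2 is in G183S replicate 1 and Pax5 WT replicate 1.

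Junb and Egr2 shared an array pattern: of the 7 Pax5 arrays, G183S replicate 1 and Pax5 WT replicate 1 were the 2 lowest for both. This was seen in 2 of the 10 factors, in 14 of 31 other immediate early response genes (45.2%) and in 12.7% of all genes. Klf10, a zinc-finger repressor chosen after its values were seen, is an example, at 9.38 in G183S replicate 1 and 8.64 in Pax5 WT replicate 1. The other Pax5 arrays read 10.79 to 11.20 with G183S and 9.79 and 10.43 with Pax5 WT, and the empty-vector arrays 10.54 to 10.97. Egr1, Jund and Fos did not have this pattern. Whether a handling difference of these cultures took part was not tested.

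Between the Pax5 constructs 2 of 10 members had an unadjusted p under 0.05 (Fosl2 higher and Egr1 lower with G183S), where 5.08% of all genes were higher and 4.41% lower by that measure. All 10 members overlapped between these groups, whereas 6.50% of all genes did not, 2.33% above and 4.17% below. The other intervals for G183S minus Pax5 WT included 0. They were narrow for Egr3 (-0.14 to 0.13) and Jund (-0.24 to 0.08) and wide for Egr2 (-0.22 to 1.34) and Fos (-0.98 to 0.24), so differences of those sizes were not resolved with 3 and 4 arrays.

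Few genes around these factors passed the adjusted threshold, while at an unadjusted p under 0.05 several lists held more genes with Pax5 WT than the 15.9% of all genes. Among 15 measured genes of other AP-1 proteins and dimer partners, such as Atf3, Fosl1 and Batf, 0 passed limma's threshold in either comparison with empty vector, with 3 at an unadjusted p under 0.05 with Pax5 WT and 1 with G183S. Atf3, a stress-induced partner of Jun, differed by 0.63 with G183S and 0.36 with Pax5 WT (adjusted p = 0.575 and 0.700). Of 5 Egr and Nr4a relatives and co-repressors 0 passed in limma, with 3 at an unadjusted p under 0.05 with Pax5 WT and 2 with G183S. Nr4a2, the closest relative of Nr4a1, was above the empty-vector arrays in all 7 Pax5 arrays (0.46 with G183S, 0.57 with Pax5 WT; adjusted p = 0.185 and 0.0878), unlike Nr4a1. Nab2, the co-repressor of Egr proteins and itself an Egr target, differed by -0.03 with G183S and 0.33 with Pax5 WT (adjusted p = 0.980 and 0.239). Atf3, Fosl1, Egr4, Nr4a2 and Nab2 were picked after their values were seen.

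Upstream, 0 of 10 serum response and CREB activator genes passed in limma, with 0 at an unadjusted p under 0.05 for Pax5 WT and 2 for G183S; Srf differed by -0.10 with G183S and -0.09 with Pax5 WT (adjusted p = 0.823 and 0.733). Of 16 measured MAP kinase relay genes 1 fell with Pax5 WT and 0 passed with G183S, and at an unadjusted p under 0.05 limma counted 3 lower and 0 higher with G183S, and 4 lower and 3 higher with Pax5 WT, against 11.3% and 15.9% of all genes. Mapk14 (p38 alpha, a stress-activated kinase) read 9.94 to 10.20 log2 units with G183S, 9.79 to 9.97 with Pax5 WT and 10.33 to 10.54 with empty vector. Its log2 difference was -0.35 with G183S (limma adjusted p = 0.118) and -0.55 with Pax5 WT (limma adjusted p = 0.0230; 0.0653 to 0.116 without empty-vector replicate 2 or 3 or Pax5 WT replicate 2). Rasgrp3, a Ras activator of B cells picked after its values were seen, had a larger difference that did not pass: 0.46 with G183S and 1.99 with Pax5 WT (limma adjusted p = 0.899 and 0.209), its arrays ranging between 7.58 and 10.82 log2 units with G183S, 9.89 and 11.41 with Pax5 WT, and 7.90 and 9.20 with empty vector. Of 15 feedback inhibitor genes 1 fell with Pax5 WT and 0 passed with G183S, with 1 lower and 2 higher at an unadjusted p under 0.05 with G183S, and 3 lower and 3 higher with Pax5 WT. Dusp6, the phosphatase that inactivates ERK, differed by -0.27 with G183S (limma adjusted p = 0.123) and -0.37 with Pax5 WT (limma adjusted p = 0.0378), a call kept in 3 of the 10 fits that left out 1 array: those without G183S replicates 1, 3 or 4. Dusp1, a stress-induced phosphatase picked after its values were seen, differed by -0.10 with G183S and -0.69 with Pax5 WT (adjusted p = 0.964 and 0.292).

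Of 31 other immediate early response genes, 1 rose and 1 fell with each construct. At an unadjusted p under 0.05 limma counted 5 lower and 1 higher with G183S, where 6.18% of all genes were lower, and 9 lower and 1 higher with Pax5 WT, where 8.55% were lower. Gadd45a, a growth-arrest and DNA-damage gene, read 9.93, 10.77, 9.73 and 10.45 log2 units with G183S, 10.76, 10.60 and 11.00 with Pax5 WT, and 8.97, 8.65 and 8.61 with empty vector. It rose by 1.48 ± 0.23 SE with G183S (limma adjusted p = 0.0344) and 2.04 ± 0.24 SE with Pax5 WT (limma adjusted p = 0.00841). The G183S call was lost without empty-vector replicates 2 or 3, Pax5 WT replicate 2 or G183S replicates 2 or 4 (adjusted p 0.0556 to 0.239), and the Pax5 WT call without empty-vector replicates 2 or 3 (adjusted p = 0.0541 and 0.0615). Rhob, an immediate early small GTPase, read 9.97 to 10.40 with G183S, 9.92 to 10.06 with Pax5 WT and 11.03 to 11.41 with empty vector. Its log2 difference was -1.14 with G183S and -1.26 with Pax5 WT (limma adjusted p = 0.00625 and 0.00613), and the calls were lost without empty-vector replicate 2 or 3 with G183S (adjusted p = 0.0561 and 0.0619) and without replicate 3 with Pax5 WT (adjusted p = 0.0534). Over the list the median log2 difference was -0.03 with each construct.

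Heat shock genes, measured as signs of stress, had 0 of 8 past limma's threshold in either comparison, with 1 at an unadjusted p under 0.05 with G183S and 2 with Pax5 WT. Their mean level was 10.54 to 10.98 log2 units in the G183S arrays, 10.76 to 10.97 in the Pax5 WT arrays and 10.66 to 10.76 in the empty-vector arrays. Of the markers of other cell types 1 passed, the T-cell gene Cd3g, at a mean of 5.02 with G183S, 5.08 with Pax5 WT and 6.17 with empty vector. The mean level of the 6 T-cell markers was 5.86 to 6.12 with G183S, 5.93 to 6.08 with Pax5 WT and 6.36 to 6.65 with empty vector. Cd3g lay below the median of all probe sets, 6.89, in each group mean. Of the 6 T-cell markers 3 were lower in limma at an unadjusted p under 0.05 with each construct: Cd3g, Cd4 and Cd2. By that measure 6.18% of all genes were lower with G183S and 8.55% with Pax5 WT. Cd4 did not pass, with log2 differences of -1.41 with G183S and -1.39 with Pax5 WT. Nor did Cd2, with -0.40 and -0.38 (limma adjusted p = 0.158 and 0.15). Cd3d, Cd3e and Cd8a were within 0.11 log2 units of their empty-vector means. Myeloid markers averaged 5.63 to 6.28 with G183S, 5.64 to 5.85 with Pax5 WT and 5.90 to 6.06 with empty vector. Erythroid markers averaged 6.35 to 6.50, 6.41 to 6.51 and 6.47 to 6.56, and stromal 6.28 to 6.43, 6.30 to 6.46 and 6.26 to 6.34 in those groups. Of the 6 myeloid markers 2 were lower in limma at an unadjusted p under 0.05 with Pax5 WT, and 0 with G183S. These were Adgre1 and Mpo, each at -0.95 with Pax5 WT (limma adjusted p = 0.310 and 0.258). Plasma-cell markers averaged 10.70 to 11.85 with G183S, 11.33 to 11.90 with Pax5 WT and 11.69 to 11.92 with empty vector. Of these 0 of 6 passed in limma, with 3 lower at an unadjusted p under 0.05 with G183S and 0 with Pax5 WT. The 3 were Tnfrsf17 (-2.08 with G183S), Sdc1 (-1.14) and Xbp1 (-0.33). Estimates were negative for all 6 with G183S and for 4 with Pax5 WT. Genes that did not pass are named here after their values were seen. The part of these heat shock and marker genes in the results on these factors was not tested.

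**Figure D4:**
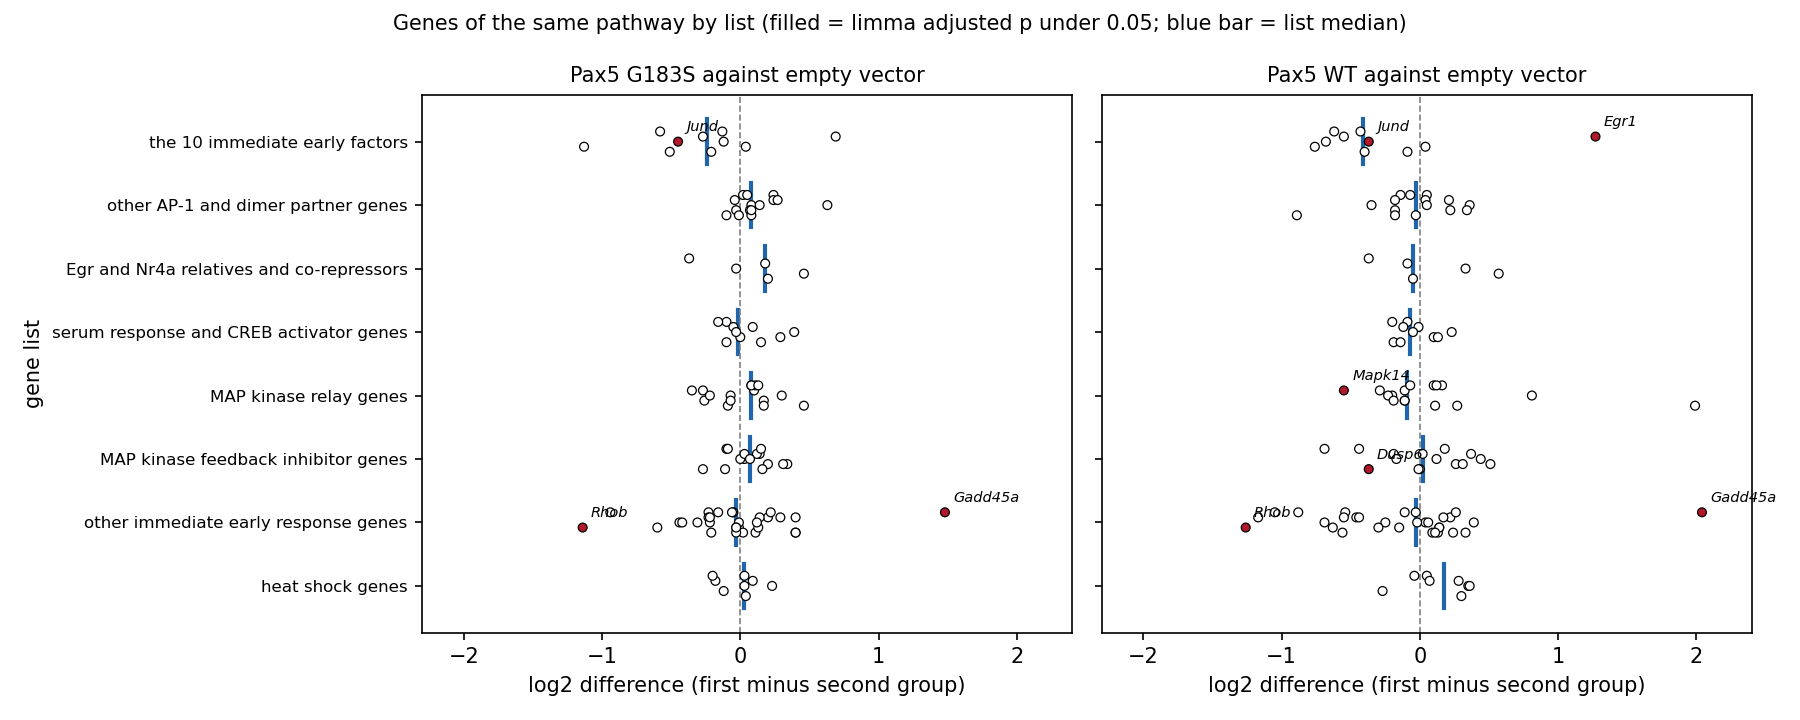
log2 difference (horizontal axes) of single genes by list, with G183S on the left and Pax5 WT on the right, each against empty vector; filled points with names have a limma adjusted p under 0.05 and blue bars are list medians. The 10 factors have medians of -0.24 and -0.42, Gadd45a is at 1.48 and 2.04, and Rhob at -1.14 and -1.26.

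Genes whose profile over the 10 arrays lay nearest to that of a called member were found by the root-mean-square difference after centring each gene on its mean. For Egr1 they were Slc7a11, the cystine and glutamate exchanger (0.214 log2 units), Rnf183, a ubiquitin ligase (0.224), and Rrm2b, a ribonucleotide reductase subunit (0.229), among 17114 genes compared. Their log2 differences were 0.55, 0.41 and 0.70 with G183S and 0.90, 0.87 and 1.12 with Pax5 WT. For Jund they were Slc37a1, a sugar-phosphate transporter (0.0764), Olfm1, a secreted olfactomedin (0.0818), and Triobp, an actin-binding protein (0.0837). Their log2 differences were -0.47, -0.48 and -0.31 with G183S and -0.40, -0.37 and -0.29 with Pax5 WT.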

How the data were processed

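Per the labels' protocols, RNA was taken with Trizol and 100 ng went into the Ambion WT Expression Kit. Each probe set has 1 log2 value per array as the authors deposited it; per the submitters' processing notes RMA and Partek were used, with no version or role given. RMA makes arrays share a distribution, so a shift of most genes would not be visible, and array fold changes tend to be compressed. Scanner files and detection calls were not used here. Of 34760 probe sets, 21640 had 1 gene symbol, 1321 several and 11799 no entry; the highest-mean probe set per gene left 19937 genes. Groups and replicate numbers came from the titles, which call the replicates biological.

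limma 3.58.1 (R 4.3.3) was fitted to all 10 arrays with 1 coefficient per group; empirical Bayes added 2.88 prior to 7 residual degrees of freedom. The p-values were two-sided and Benjamini-Hochberg adjusted over all 19937 genes; under 0.05 was called. The fit was tested on simulated data. Alternatives were array centring, a dim-probe filter, every probe set, a trended robust prior, no moderation, array weights, only the groups compared, a replicate block and leaving out each array; leaving out the 2 Pax5 arrays numbered 1 was added after the data were seen. The labels do not pair the groups by replicate number. Same-numbered arrays' deviations correlated between -0.162 and 0.507. The correlation was highest between the G183S and Pax5 WT arrays numbered 1 (0.507) and 3 (0.455), where the same number was the best match.

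The members and the 12 lists (other AP-1, Egr and Nr4a relatives, serum response and CREB, MAP kinase relay, feedback, other immediate early, heat shock, and plasma-cell, T-cell, myeloid, erythroid and stromal markers) were chosen with earlier results of these data known; 128 of 140 list genes were measured. Named are the members, Pax5, up to 4 called genes per list, the 3 nearest profiles of each called member, and those said to be picked later. Sequences are from RefSeq. Figures used Python 3.11.15 and matplotlib 3.10.9.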

Additional observations from a re-analysis of the deposited data

Results flagged for a closer look

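Egr2 in G183S replicate 1 read 7.62 log2 units, against 8.83 to 8.99 in the other 3 G183S arrays. Its gap to the nearest array was 0.887 of the group's range, above Dixon's 95% critical value for 4 samples. The 10 factors were examined in this group, and chance alone flags about 1 in 20 groups. Groups of 3 arrays were not examined this way.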

How the results depend on the processing

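The count of called members rested on few arrays and on the spread estimate. With Pax5 WT against empty vector 2 members were called. It was 1 without dim probe sets, with every probe set tested, with a trended robust prior, with only the 2 groups compared, with the replicate block and without the 2 Pax5 arrays numbered 1; it was 0 without moderation, 5 with array weights, and 0 to 2 when 1 array was left out. With G183S against empty vector 1 was called: 0 without dim probe sets, with the trended robust prior, without moderation and with the replicate block, 5 with array weights, 4 without the 2 arrays numbered 1, and 0 to 1 when 1 array was left out. Between G183S and Pax5 WT 0 were called, 2 with array weights and 0 to 1 when 1 array was left out. Over all genes the 374 calls with Pax5 WT became 4 without moderation, 2576 with array weights, 587 with only the 2 groups compared, 228 with the replicate block, 690 without the 2 arrays numbered 1 and 6 to 1033 when 1 array was left out. The 62 calls with G183S became 6, 1449, 84, 10, 890 and 8 to 295 in the same order, and the 0 calls between G183S and Pax5 WT became 1, 2752, 0, 2, 419 and 0 to 1113. Single calls were lost as follows. With the replicate block the calls of Jund (adjusted p = 0.115 with G183S and 0.0701 with Pax5 WT), Gadd45a with G183S (0.146), and Mapk14 (0.0535) and Dusp6 (0.0684) with Pax5 WT were lost. With only the 2 groups compared, Gadd45a with G183S (0.0559) and Jund with Pax5 WT (0.0628) were lost, and with the trended prior both Jund calls (0.0692 and 0.0791) and Dusp6 (0.0808), which was also lost without the 2 arrays numbered 1 (0.0532). Without moderation the calls of Jund, Gadd45a, Mapk14, Dusp6, Rhob and Egr1 were lost (adjusted p 0.0658 to 0.162). Signs turned only for small differences. With G183S against empty vector, Fosl2 (-0.13) was 0.014 without the 2 arrays numbered 1 and -0.26 to 0.038 when 1 array was left out, and Egr2 (-0.12) was 0.20, 0.084 with array weights, and -0.25 to 0.20. Between G183S and Pax5 WT, Fosb was -0.35 to 0.067 and Egr3 -0.038 to 0.028 when 1 array was left out, Egr3 was 0.012 with the replicate block, and Nr4a1 was 0.0088 with array weights. With the arrays centred on their medians the calls with Pax5 WT split into 100 higher and 218 lower, against 176 and 198 as deposited, and the counts of called members were the same. Causes were not tested. The same-numbered arrays were not a pairing by the labels, and the number of arrays and the unknown background limit what small differences can show.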
